A study of Homo sapiens with 8 samples.

Results

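The genes described here are 6 chemokines of the CXC class (CXCL1, CXCL2, CXCL3, CXCL8, CXCL10 and CXCL11), 2 chemokines of the CC class (CCL5 and CCL20), the cytokine IL6 and its receptor IL6R. They were taken as a list of 10 genes by symbol. All 10 were on the array, each with 1 probe set that carries no other gene symbol, among 18417 named genes and 33297 probe sets. The study put 8 arrays on 2 established human prostate cancer lines, LNCaP, which responds to androgen, and DU145, which grows without it, with 4 transfections apiece. The transfections were Negative control miR (nc), miR-29b, a control siRNA (siControl) and an siRNA against the DNA demethylation enzyme TET2 (siTET2). Cells were kept in medium with 10% serum and lysed for RNA 72 hours later. Each line is an established culture with no added immune or stromal cells, and each group is 1 array. A difference between a treated and a control array therefore has no replicate check and no p-value, and is given as a value on the deposited log2 scale.

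Chemokines are small secreted proteins that direct the movement of white blood cells. CXCL1, CXCL2, CXCL3 and CXCL8 (interleukin 8) carry the ELR tripeptide before their CXC cysteines and draw neutrophils through the receptor CXCR2, whereas CXCL10 and CXCL11 lack it, are induced by interferon and draw T cells through CXCR3. CCL5 draws T cells and monocytes, and CCL20 acts through CCR6. IL6 binds IL6R, and the pair signals through IL6ST, JAK kinases and STAT3. Epithelial and tumour cells make these ligands when NF-kappaB, a transcription factor family switched on by TNF, IL1 and sensors of foreign RNA, enters the nucleus.

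As a check of the transfections, TET2 had a log2 level of 7.89 with siTET2 against 9.01 with siControl in LNCaP and of 6.60 against 7.85 in DU145. Under miR-29b the LNCaP level was 8.59 (nc 9.24) and the DU145 level 7.79 (nc 7.96). From nc these were differences of -0.64 and -0.18, against -0.23 and -0.11 between the control arrays. In DU145 the TET2 level is therefore no check of the miR-29b transfection. Of 7 LNCaP markers measured, 7 lay above the array's median over named genes in every LNCaP array and 3 in every DU145 array, among them the keratin KRT8, which DU145 also makes. Of 12 DU145 markers, 12 lay above it in every DU145 array and 2 in every LNCaP array. The lines' arrays differ as a whole: their medians over all probe sets ran from 7.10 to 7.17 in LNCaP and from 6.59 to 6.66 in DU145.

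White blood cells make several of these ligands, and their markers were low on every array. Of 11 immune cell markers measured, 1, the lysosomal protein CD68, which epithelial cells also make, exceeded the median gene on each of the 8 arrays. PTPRC, the surface phosphatase of all white blood cells, lay between 3.42 and 4.10. The summed log2 level of the list ran from 62.1 to 64.3 in LNCaP and from 56.3 to 58.8 in DU145. The part of other cell types in the values below was not tested beyond this.

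The promoters of the CXC ligands are shown because 6 of them share a short sequence that members of the NF-kappaB family bind. RefSeq's promoter table (GRCh38.p14) held 9 of the 10 genes; CCL5 had no entry. The 9 letters GGAATTTCC, searched on both strands, stood in the 250 bases before the transcription start of CXCL1, CXCL2, CXCL3, CXCL8, CXCL10 and CXCL11, that is in 6 of 9 members with a sequence, against 0.413% of 35116 promoters of the same length. The longer NF-kappaB consensus, whose matches overlap this one in 5 of the 6 genes, was found in 7 of 9 members (5.21% of all promoters): all of the 6 but CXCL8, and in addition CCL20 and IL6. The core of the interferon-stimulated response element (TTTC, any 2 bases, TTTC), searched on both strands, was found in CXCL10 only (3.02% of all promoters). IL6R had no match to any motif searched. These are matches of letters, not measured sites. In the sequences, written 5′ to 3′ on the gene's strand, capitals mark the matches to GGAATTTCC, to the NF-kappaB consensus and to the response element core:
CXCL1 (chr4:73869143-73869392, plus strand): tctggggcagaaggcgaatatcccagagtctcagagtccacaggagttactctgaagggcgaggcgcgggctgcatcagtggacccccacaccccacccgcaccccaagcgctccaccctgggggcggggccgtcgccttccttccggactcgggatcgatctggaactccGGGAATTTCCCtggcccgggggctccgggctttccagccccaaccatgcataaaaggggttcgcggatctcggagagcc
CXCL2 (chr4:74099196-74099445, minus strand): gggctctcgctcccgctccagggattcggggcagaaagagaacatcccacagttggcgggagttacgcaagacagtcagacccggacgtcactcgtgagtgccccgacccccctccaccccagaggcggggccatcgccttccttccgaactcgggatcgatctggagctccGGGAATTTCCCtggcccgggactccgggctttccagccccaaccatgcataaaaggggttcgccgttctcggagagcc
CXCL3 (chr4:74038690-74038939, minus strand): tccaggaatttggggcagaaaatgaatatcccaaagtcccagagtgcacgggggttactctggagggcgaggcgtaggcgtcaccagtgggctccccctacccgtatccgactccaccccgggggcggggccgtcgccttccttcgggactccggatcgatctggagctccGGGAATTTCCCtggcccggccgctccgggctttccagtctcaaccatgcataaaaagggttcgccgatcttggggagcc
CXCL8 (chr4:73740319-73740568, plus strand): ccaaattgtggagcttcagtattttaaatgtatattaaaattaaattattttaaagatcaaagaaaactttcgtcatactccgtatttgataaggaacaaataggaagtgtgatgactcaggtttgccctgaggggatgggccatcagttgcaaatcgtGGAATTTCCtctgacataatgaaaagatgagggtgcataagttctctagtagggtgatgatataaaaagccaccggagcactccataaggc
CXCL10 (chr4:76023498-76023747, minus strand): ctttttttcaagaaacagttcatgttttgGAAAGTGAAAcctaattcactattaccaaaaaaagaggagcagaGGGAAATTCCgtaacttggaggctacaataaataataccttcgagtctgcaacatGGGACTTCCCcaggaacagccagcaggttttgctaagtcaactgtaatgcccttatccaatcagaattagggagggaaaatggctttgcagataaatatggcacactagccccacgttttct
CXCL11 (chr4:76036071-76036320, minus strand): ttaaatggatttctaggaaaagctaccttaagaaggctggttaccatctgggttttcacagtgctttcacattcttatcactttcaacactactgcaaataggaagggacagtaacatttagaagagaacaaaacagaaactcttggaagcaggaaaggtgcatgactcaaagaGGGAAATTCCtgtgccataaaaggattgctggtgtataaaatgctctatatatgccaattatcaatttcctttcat

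In CXCL1, CXCL2 and CXCL3 the 9-letter match began 78, 77 and 78 bases before the start, and in CXCL8 91 bases before it. CXCL8 had in addition the AP-1 core TGANTCA (6.57% of all promoters) and a TATAAA box (10.7%), both of which CXCL11 shared. Over the match and 40 bases on either side, without gaps, CXCL1 and CXCL3 were identical at 82 of 89 positions and CXCL1 and CXCL2 at 67 of 89, whereas CXCL1 and CXCL8 shared 29 of 89. CXCL1, CXCL2 and CXCL3 are close copies also in their transcripts, so a probe set of 1 of them may take up signal from another, which was not tested. On chromosome 4, RefSeq places CXCL8, CXCL6, PF4V1, CXCL1, PF4, PPBP, CXCL5, CXCL3 and CXCL2 next to each other in this order, and CXCL10 and CXCL11 next to each other elsewhere on it.

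**Figure D1:**
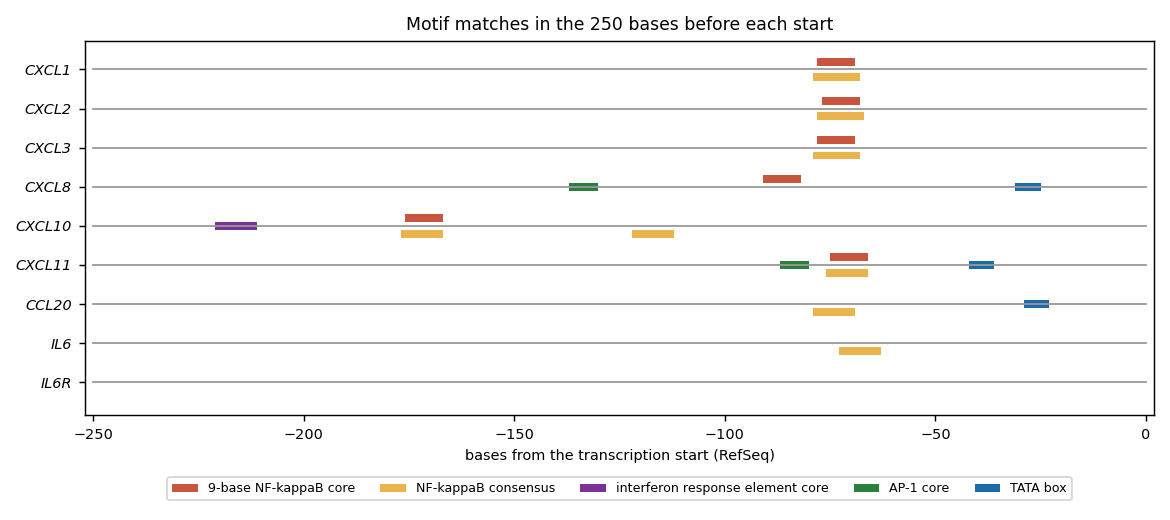
Matches of 5 motifs in the 250 bases before the RefSeq transcription start of 9 genes; the x axis is the distance from the start in bases and each bar is 1 match, with the NF-kappaB bars above and below the line. The 9-letter NF-kappaB core lies in all 6 CXC genes, the interferon response element core in CXCL10 only, and IL6R has no match.

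The microRNA transfected is shown as RefSeq gives its mature 3p form, with the seed (bases 2 to 8) in capitals. The labels name miR-29b without its arm. Whether these transcripts carry matches to the seed was not analysed here.
hsa-miR-29b-3p: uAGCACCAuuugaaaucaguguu

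The first comparison is between the lines. In LNCaP the ELR ligand CXCL1 had log2 levels of 6.78 with nc, 6.57 with miR-29b, 6.62 with siControl and 6.59 with siTET2, and in DU145 9.25, 9.41, 9.77 and 9.44 in the same order. CXCL2 had 4.73, 4.71, 4.51 and 4.88 in LNCaP and 9.04, 8.99, 9.27 and 9.55 in DU145. For both genes every DU145 array lay above every LNCaP array. For this and the separations of the lines below, the share of all genes that separate likewise was not counted. Most genes differed between the lines in the test given further below, so a separation need not be particular to these genes. CXCL8 had 7.57, 8.95, 6.95 and 7.02 in LNCaP and 10.17, 10.39, 11.25 and 11.75 in DU145, again without overlap. IL6 had 5.21, 5.20, 5.02 and 5.31 in LNCaP and 7.16, 6.65, 7.03 and 6.64 in DU145. These 4 genes were higher in DU145. CXCL3, whose promoter is nearly that of CXCL1 around the NF-kappaB match, was not among them: it had 5.87, 5.87, 5.82 and 5.88 in LNCaP and 5.49, 5.51, 5.67 and 5.89 in DU145, low in both lines and with overlapping values as deposited. After centring or quantile normalization its values no longer overlapped and lay higher in DU145.

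The interferon-induced ligands went the other way. In LNCaP, CXCL10 had 7.86 with nc, 9.08 with miR-29b, 7.42 with siControl and 8.24 with siTET2; DU145 gave 3.60, 3.33, 3.80 and 4.42 in DU145. CXCL11 had 5.60, 7.13, 5.58 and 6.17 in LNCaP and 3.88, 3.74, 4.37 and 4.51 in DU145. Every LNCaP array lay above every DU145 array for both, again without a count over all genes. In DU145, CXCL10 lay between the 1.97th and the 12.0th percentile of named genes on its array, and CXCL11 between the 4.92th and the 12.9th, so at such levels a difference between DU145 arrays can be one of background.

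The CC ligands and IL6R did not separate the lines. In LNCaP, CCL5 had 7.86 with nc, 8.86 with miR-29b, 7.15 with siControl and 7.58 with siTET2; DU145 gave 6.89, 6.67, 6.89 and 7.97 in DU145. CCL20 had 9.21, 10.11, 8.49 and 8.19 in LNCaP and 9.08, 8.61, 8.86 and 8.97 in DU145. IL6R was nearly constant in LNCaP (9.17, 9.17, 9.19 and 9.17) and had 8.27, 8.24, 8.15 and 9.49 in DU145, where siTET2 alone lay above LNCaP. For all 3 genes the ranges of the lines overlapped.

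**Figure D2:**
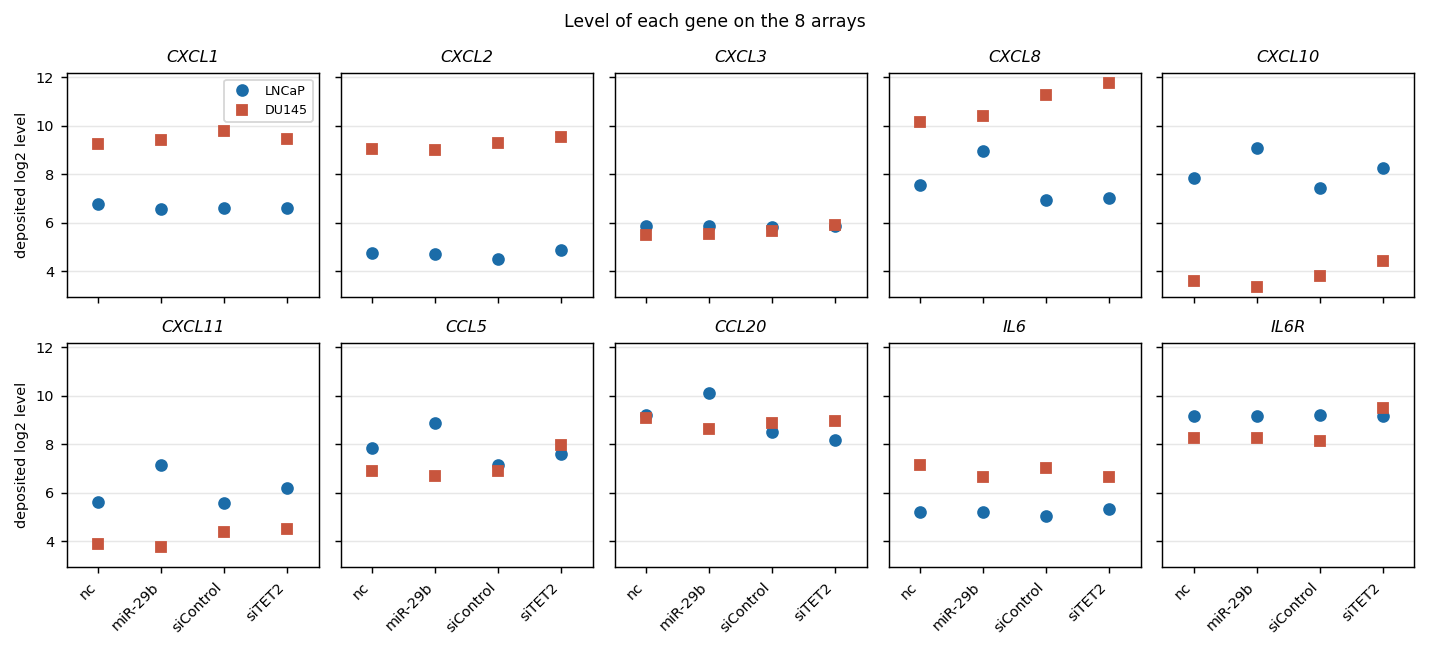
Deposited log2 level (y axis) of each of the 10 genes on the 4 LNCaP arrays (circles) and the 4 DU145 arrays (squares), by transfection (x axis); each point is 1 array, and levels are to be compared within a gene. CXCL1, CXCL2, CXCL8 and IL6 are higher in all 4 DU145 arrays, CXCL10 and CXCL11 in all 4 LNCaP arrays, and IL6R stands out in 1 array, DU145 siTET2 at 9.49.

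The line difference was tested with limma over all 8 arrays, with transfection as a term. CXCL1 was 2.82 log2 units higher in DU145 (SE 0.10, limma adjusted p = 2.07e-08) and CXCL8 3.26 (SE 0.456, limma adjusted p = 1.39e-04). The level filter of this fit, a mean at or above the median gene's, left 4 of the 10 genes. CCL20 did not pass the threshold (-0.12, SE 0.300, limma adjusted p = 0.722). In LNCaP, CXCL1 lay below the median gene on every array (31.34th to 34.7th percentile), so it passed the filter through its DU145 levels. CXCL8 lay above the median gene on 1 of 4 LNCaP arrays. In the same limma fit without the filter, CXCL2 was 4.51 higher in DU145 (SE 0.10, adjusted p = 3.75e-09), IL6 1.69 higher (SE 0.124, adjusted p = 3.68e-06), CXCL10 4.36 log2 units lower, written -4.36 (SE 0.299, adjusted p = 2.42e-06), and CXCL11 -1.99 (SE 0.298, adjusted p = 2.47e-04). CCL5, at -0.76, did not pass (SE 0.341, limma adjusted p = 0.0651). The 4 arrays of a line differ in transfection and the labels name no separate cultures, so these p-values measure the spread between arrays, which may be technical in part.

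A call between the lines is common: limma called 27.6% of 9209 genes higher and 54.1% lower in DU145, and 19.3% and 66.1% of 18417 without the filter, where 4 of the 10 members were called higher and 4 lower. The size is less common: as far from 0 as CXCL8 lay 2.22% of genes and as far as CXCL1 3.0%. For CXCL2 the share was 0.842%, for CXCL10 0.945%, for CXCL11 6.22% (13.7% after quantile normalization) and for IL6 8.77%. In LNCaP, CXCL2 lay between the 4.93th and the 7.83th percentile of named genes and IL6 between the 9.84th and the 12.8th. Their differences, like those of CXCL10 and CXCL11, are taken against a level that can be background and are not exact sizes. The median gene differed by -0.52 (DU145 minus LNCaP) as deposited, so the split of calls depends on the scaling. As deposited, 2546 genes were higher in DU145 and 4986 lower. These numbers were 4955 and 2196 with each array centred on its median, and 3553 and 3713 after quantile normalization of all 8 arrays. With centred arrays, CXCL1 was 3.34 higher in DU145, CXCL2 5.02, CXCL8 3.78 and IL6 2.20, while CXCL10 was at -3.85 and CXCL11 at -1.48. CXCL11 was at -1.21 after quantile normalization, against -1.99 as deposited. CXCL3, called lower in DU145 in the unfiltered fit as deposited (-0.22, SE 0.0894, limma adjusted p = 0.0447), turned to 0.29, or to 0.50 after quantile normalization, and CCL20 from -0.12 to 0.39. IL6R, at -0.64 (SE 0.199, limma adjusted p = 0.0151) as deposited, was at -0.13 (limma adjusted p = 0.506) with centred arrays and at -0.38 (limma adjusted p = 0.106) after quantile normalization. Its call was lost as well on leaving out any 1 of the nc, miR-29b or siControl arrays of either line (-0.50 to -0.55, limma adjusted p from 0.0548 to 0.0727). Without either siTET2 array it was -0.96 (limma adjusted p = 5.27e-06).

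Genes of the pathways that act on these ligands are given beside the shares of all 9209 genes that limma called, 27.6% higher and 54.1% lower in DU145 as deposited. With centred arrays 4955 of the 9209 genes were called higher and 2196 lower. The centred counts of genes higher in the RNA sensing list and in the TNF, IL1 and toll-like list below are near that share. Of 17 genes of NF-kappaB subunits, inhibitors and feedback, 14 were tested, 12 were higher and 2 lower in DU145 with limma, with a median of 0.88 against -0.25 over all genes tested; 13 and 0 were called with centred arrays. Among them ICAM1, an adhesion molecule that NF-kappaB induces, was at 6.35 in LNCaP and 11.63 in DU145 (means of 4 arrays), TNFAIP3, an inhibitor that NF-kappaB itself induces, at 7.42 and 9.85, and the subunit REL at 7.91 and 9.51. Of 22 genes of IL6 family signalling, 12 were tested, 9 were higher and 1 lower in DU145, with a median of 0.68; with centred arrays 11 were higher and 1 lower, with a median of 1.19. OSMR, the oncostatin M receptor, was at 7.10 in LNCaP and 12.34 in DU145, JAK1, a kinase of the IL6 receptor complex, at 7.28 and 10.68, and LIF, a cytokine of the IL6 family, at 6.21 and 8.94, while JAK2 was lower, at 8.46 and 7.15. Of 16 genes of RNA sensing and the interferon route, 9 were tested, 3 were higher and 3 lower in DU145, with a median of 0.10; with centred arrays 5 were higher and 2 lower, with a median of 0.61. MAVS, the adaptor of the RNA sensors, was at 9.61 in LNCaP and 8.16 in DU145, and the interferon receptor chain IFNAR2 at 7.75 and 9.27. Of 16 inputs through TNF, IL1 and toll-like receptors, 7 were tested, 2 were higher and 3 lower in DU145, with a median of -0.19; with centred arrays 4 were higher and 3 lower, with a median of 0.32. The IL1 receptor IL1R1 was at 8.99 in LNCaP and 7.34 in DU145. Of 36 other chemokine ligands 1 was tested, CXCL16, a ligand with a membrane anchor, at 9.45 in LNCaP and 8.68 in DU145 (-0.77, SE 0.0767, limma adjusted p = 1.51e-05). Its difference was -0.26 with centred arrays and -0.54 after quantile normalization. None of 22 chemokine receptors passed the level filter. ICAM1, TNFAIP3, OSMR, JAK1 and LIF passed it only through their DU145 levels. The counts of genes higher in DU145 thus include genes that the filter admitted through the line where they are high.

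The second comparison is miR-29b against nc, and here the lines gave different pictures. In LNCaP the miR-29b array had the highest level of all 4 arrays for CXCL8, CXCL10, CXCL11, CCL5 and CCL20. CXCL11 was 1.53 above nc (2.89-fold), CXCL8 1.38 (2.60-fold), CXCL10 1.22 (2.33-fold), CCL5 1.0 (2.0-fold) and CCL20 0.91 (1.87-fold). The other 5 genes lay within 0.21 of nc, IL6 at -0.02, IL6R at -0.0023, CXCL1 at -0.21, CXCL2 at -0.02 and CXCL3 at 0.0058. Of the 10 genes 5 were at least 1.5-fold higher with miR-29b, against 0.673% of all 18417 genes, and 4 at least 2-fold, against 0.0923%; 0 were at least 1.5-fold lower, against 0.386%.

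Among the 9444 LNCaP genes above a level floor (the higher of both arrays at or above its array's median), CXCL8 had the 3rd, CXCL10 the 4th, CCL5 the 9th and CCL20 the 14th highest difference. CXCL11 lay below this floor on both arrays, and CXCL8 passed it through its miR-29b array only. Of the 5 members above the floor 4 were at least 1.5-fold higher, against 0.604% of genes above it (0 lower, 0.244%), and 3 at least 2-fold higher (0.0953%). With the floor at the 75th percentile 1 was left, CCL20.

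The background of these values is the difference between both control arrays of the line, which share nc with the comparison above. In LNCaP, siControl lay below nc for the same ligands: CCL20 at -0.72, CCL5 at -0.71, CXCL8 at -0.62 and CXCL10 at -0.44, with CXCL11 at -0.03. Of the 10 genes 3 were at least 1.5-fold lower, against 2.39% of all genes, and 0 higher (1.56%); above the floor these were 2 of 4 (0.514%) and 0 (1.79%). Set against siControl, miR-29b was accordingly further away, by 2.0 for CXCL8, 1.71 for CCL5, 1.66 for CXCL10, 1.62 for CCL20 and 1.55 for CXCL11. So the miR-29b array lay above both controls for these 5 ligands, and above the higher control by more than the controls differed. In all, 6 of the 10 genes lay above both controls with miR-29b in LNCaP, against 28.0% of all genes, the 6th being CXCL3 by 0.0058, and 2 lay below both (22.2%).

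**Figure D3:**
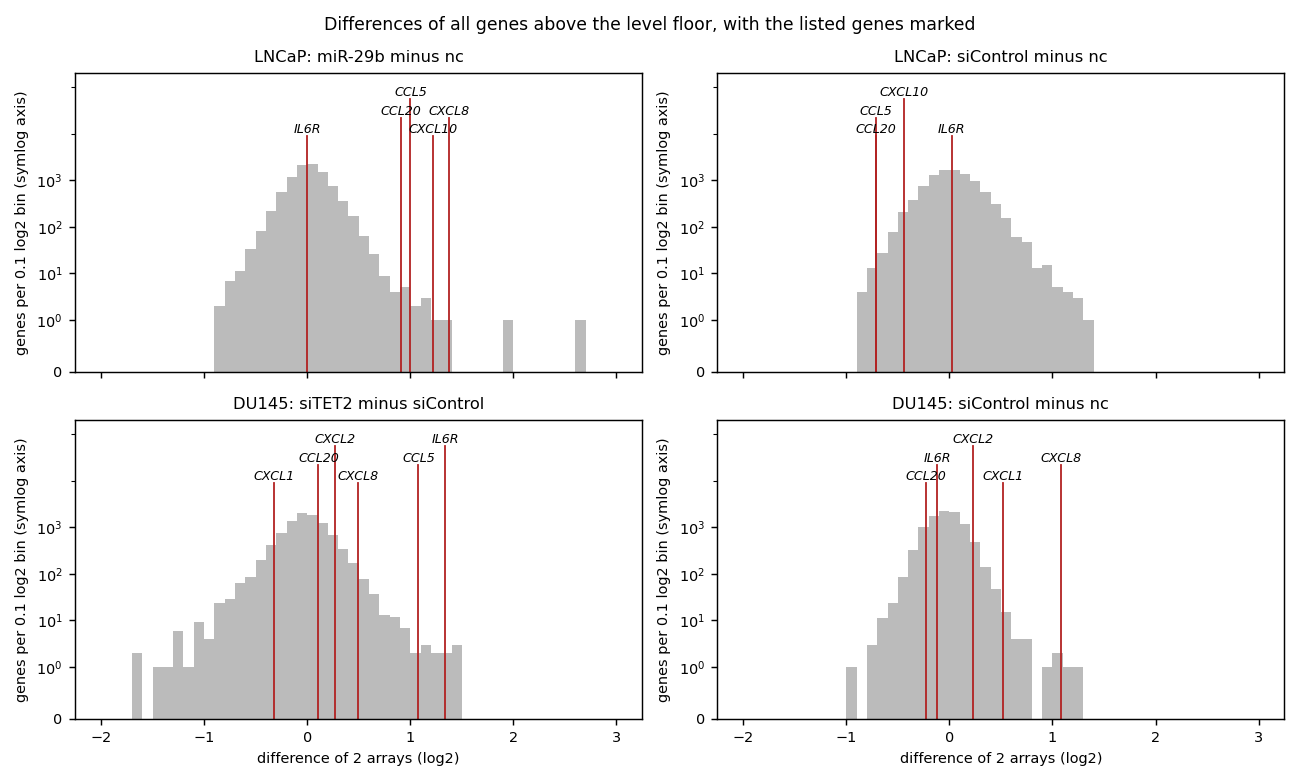
Number of genes above the level floor per 0.1 log2 bin of the difference between 2 arrays (bars, symmetric log y axis), for miR-29b minus nc in LNCaP, siTET2 minus siControl in DU145 and both control pairs, with the listed genes above the floor marked by lines. CXCL8, CXCL10, CCL5 and CCL20 lie in the upper tail in LNCaP with miR-29b, IL6R and CCL5 in DU145 with siTET2, and CXCL8 (1.09) in the tail of the DU145 control pair.

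In DU145 the same transfection left these ligands near nc or below it. CCL20 was at -0.48 and IL6 at -0.51 from nc, CXCL10 at -0.27, CCL5 at -0.22 and CXCL11 at -0.14, while CXCL8 was at 0.22 and CXCL1 at 0.16. None of the 10 was at least 1.5-fold from nc, against 0.559% of genes higher and 0.190% lower (0.0638% and 0.0532% above the floor, where 5 members lay). Lying below both control arrays were 6 of the 10 genes (31.2% of all genes) and lying above both 0 (33.1%). From siControl, CXCL8 with miR-29b was at -0.87, as siControl itself lay 1.09 above nc. CCL20 had the 25th lowest difference from nc among 9398 genes above the floor.

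The difference between the lines' miR-29b effects was 1.67 for CXCL11, 1.49 for CXCL10, 1.38 for CCL20, 1.23 for CCL5 and 1.16 for CXCL8 (LNCaP less DU145). With 1 array for each line and transfection it was not tested. Of 7 members above the floor in either line, 4 reached a 2-fold difference between the lines, against 0.180% of 10560 genes. By the same count 1 of 7 did for siTET2 minus siControl (0.237%) and 1 of 7 for siControl minus nc (0.245%). Of the 4 for miR-29b, CXCL10 and CCL5 were above the floor in LNCaP only. The floor thus admitted them through the line where they were high, and the count is given as a description.

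Most upstream genes lay nearer to nc in LNCaP. Above the floor 1 of 8 genes of RNA sensing and 0 of 13 NF-kappaB genes were at least 1.5-fold higher, against 0.604% of all genes. Of the RNA sensing and interferon genes, RIGI, a sensor of foreign RNA, was at 8.47 with miR-29b and 7.61 with nc. Its difference of 0.86 (0.03 between the control arrays) was close to that of CCL20 (0.91). IRF9, a subunit of the interferon-activated transcription factor, was at 0.41, whereas MAVS was at -0.40 and IRF7 at -0.23. TLR3, a receptor of double-stranded RNA, was at 0.52, with siControl 0.35 above nc. Of the NF-kappaB genes TNFAIP3 was at 0.47, NFKBIE at -0.30, RELB at -0.27 and CHUK at 0.25. The median over 13 NF-kappaB genes above the floor was 0.03 and over 8 genes of RNA sensing 0.16, against 0.02 over all genes. Of other chemokine ligands 3 were above the floor, CCL17 (-0.21), CXCL16 (-0.14) and CCL2, a ligand that draws monocytes (0.13). Of 9 genes of IL6 signalling above the floor 0 reached 1.5-fold, the largest being STAT3 (-0.18) and LIFR (0.17).

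The third comparison is siTET2 against siControl, which shares the siControl array with the control pair. In DU145 IL6R, the binding chain of the IL6 receptor, was at 9.49 with siTET2 and between 8.15 and 8.27 on the other 3 arrays, 1.34 above siControl (2.53-fold) and 1.22 above nc. CCL5 was at 7.97 with siTET2 and between 6.67 and 6.89 on the others, 1.08 above siControl (2.11-fold) and 1.07 above nc. For both genes siTET2 was the highest DU145 array by far more than the other arrays differed. IL6R had the 5th and CCL5 the 11th highest difference among 9424 genes above the floor, which CCL5 passed through its siTET2 array only. IL6, the ligand of IL6R, was not higher: it was at -0.39 from siControl and -0.52 from nc, below the floor.

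CXCL8 in DU145 is a case where the control matters. Its order was nc (10.17), miR-29b (10.39), siControl (11.25) and siTET2 (11.75). The difference of siTET2 from siControl was 0.49, less than the 1.09 between the control arrays, and from nc it was 1.58. CXCL1 was at -0.32 from siControl and at 0.19 from nc, as siControl lay 0.52 above nc. CXCL2 was at 0.27 from siControl and at 0.50 from nc. CXCL10 was at 0.62 and 0.82 and CXCL11 at 0.14 and 0.63, both at low levels, and CCL20 at 0.11 and -0.12. Of the 10 genes 3 were at least 1.5-fold higher than siControl with siTET2 (CXCL10, CCL5 and IL6R), against 0.939% of all genes, and 2 at least 2-fold, against 0.0923%; 0 were at least 1.5-fold lower (1.23%). Above the floor 2 of 6 were at least 1.5-fold higher (0.955%), both of them at least 2-fold (0.127%), and 0 lower (1.59%). Above both controls lay 7 of 10 genes, against 38.9% of all genes, and 1 lay below both (35.3%). Between the control arrays of DU145, CXCL8 alone was at least 1.5-fold higher (0.489% of all genes, 0.160% above the floor), and 0 were lower (0.195% and 0.181%).

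In LNCaP the interferon-induced ligands were the members farthest from siControl with siTET2. CXCL10 was 0.82 above siControl (1.77-fold) and 0.38 above nc, passing the floor through its siTET2 array only, and CXCL11 0.60 above siControl and 0.57 above nc, below the floor. These were 2 of 10 genes at least 1.5-fold higher, against 0.521% of all genes, with 0 lower (1.5%); above the floor these were 1 of 3 (0.382%) and 0 (2.37%). CCL5 was at 0.43 from siControl but at -0.28 from nc, and CXCL8 at 0.07 and -0.55. CCL20 was lowest of the 4 arrays with siTET2, at -0.31 from siControl and at -1.02 from nc. IL6R was at -0.02 from siControl, so that the lines differed in it by -1.36 (LNCaP less DU145), which was not tested. Above both controls lay 5 of 10 genes, against 27.7% of all genes, and below both 3 (26.4%).

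With siTET2, no other pathway gene above the floor lay as far from siControl as IL6R and CCL5 in DU145 or CXCL10 in LNCaP. IRF1 and CHUK in DU145 and IL6ST in LNCaP lay farther from siControl than most members did. In DU145, IRF1, a transcription factor of the interferon response, was at 7.81 against 7.15 with siControl (0.66, the control arrays differing by -0.07). MAVS was 0.52 above siControl, which itself lay at -0.37 from nc. LIF was at 0.52, NFKBIA, an inhibitor that holds NF-kappaB in the cytoplasm, at 0.42 (control arrays 0.22), and CHUK, a kinase that acts on such inhibitors, at -0.59 (control arrays 0.26). In LNCaP, IL6ST, the signalling chain shared by the IL6 family, was at 9.54 against 10.24 (-0.70), where siControl lay 0.34 above nc, and ADAM10, a protease that can release IL6R from the cell, at -0.46. The median over 15 NF-kappaB genes above the floor in DU145 was 0.14 and over 9 genes of RNA sensing 0.22, against -0.01 over all genes.

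**Figure D4:**
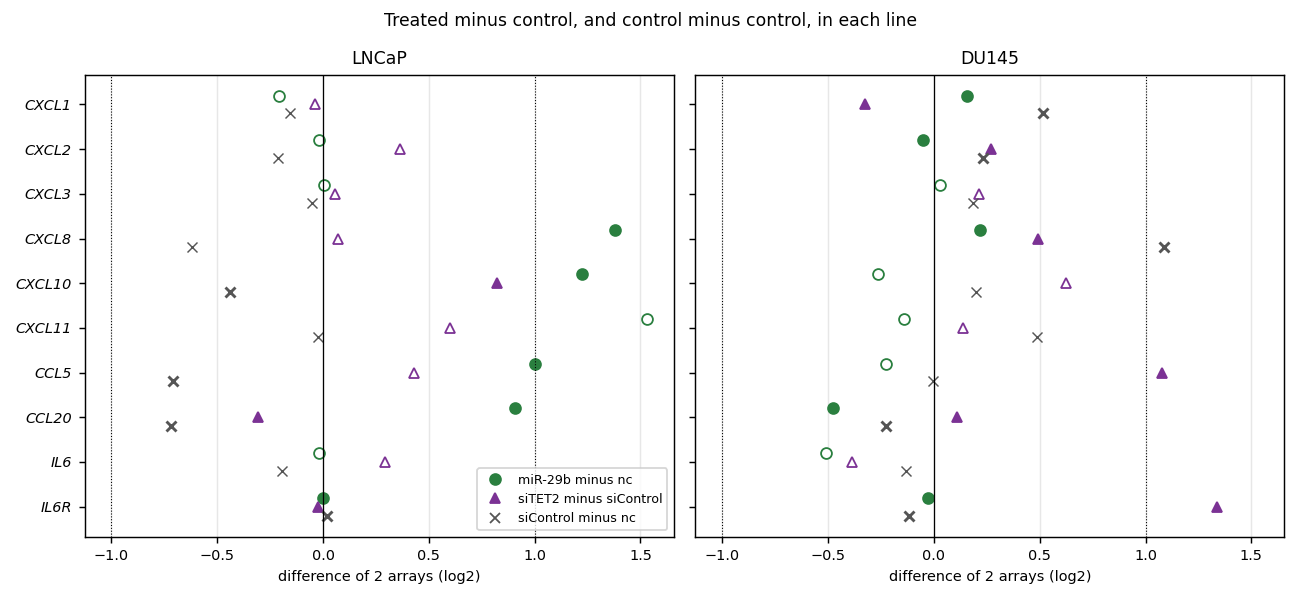
Difference between 2 arrays (x axis, log2) for each gene in LNCaP (left) and DU145 (right): miR-29b minus nc (circles), siTET2 minus siControl (triangles) and siControl minus nc (crosses); filled or bold marks are above the level floor, and dotted lines mark 2-fold. In LNCaP the circles of CXCL8, CXCL10, CXCL11, CCL5 and CCL20 lie to the right and their crosses at or left of 0, and in DU145 the triangles of IL6R (1.34) and CCL5 (1.08) stand apart from their crosses.

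An effect common to both lines was tested with limma on all 8 arrays with cell line as a term, where the spread is the departure of the lines from a shared effect. None of the 4 members tested passed for miR-29b minus nc, with 0 at an unadjusted p under 0.05; limma called 0.0% of 9209 genes in either direction, with 344 at an unadjusted p under 0.05. CXCL8 had a common difference of 0.80 (SE 0.645, limma adjusted p = 0.995) and CCL20 of 0.21 (SE 0.425, limma adjusted p = 0.995). Both turn on single arrays. Without the LNCaP miR-29b array CXCL8 was at -0.42 and CCL20 at -0.71, and without the DU145 miR-29b array at 2.02 and 1.14. CXCL8 was at 1.24 without the LNCaP nc array and at 0.35 without the DU145 one. For siTET2 minus siControl none of the 4 passed either, with IL6R alone at an unadjusted p under 0.05 (0.66, SE 0.281, limma adjusted p = 0.350). Of all 9209 genes 1266 had an unadjusted limma p under 0.05, and limma called 0.0326% higher and 0.347% lower. Without the LNCaP siTET2 array the IL6R value was 1.30 (limma adjusted p = 0.00880), which then rests on DU145 alone. Without the level filter all 10 genes were tested and none passed for either treatment; limma then called 0.0% of 18417 genes for miR-29b, and 0.0% higher and 0.00543% lower for siTET2. The nearest, all with siTET2, were IL6R (0.66, SE 0.292, limma adjusted p = 0.634), CXCL2 (0.32, SE 0.142, limma adjusted p = 0.639), CXCL10 (0.72, SE 0.423, limma adjusted p = 0.722) and CCL5 (0.75, SE 0.482, limma adjusted p = 0.749). CCL5 was above siControl with siTET2 in both lines, by 0.43 in LNCaP and 1.08 in DU145. In LNCaP, however, it lay below the floor and between the control arrays, at -0.28 from nc. For siControl minus nc limma called 0 of 4, with 0 at an unadjusted p under 0.05, and 0 of all genes, with 1212 at that level.

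The pathway lists held no limma call for any transfection. With siTET2, of 12 IL6 signalling genes tested 2 had an unadjusted p under 0.05, of 14 NF-kappaB genes 1, of 7 TNF, IL1 and toll-like inputs 0 and of 9 RNA sensing genes 1. With miR-29b these numbers were 0, 0, 0 and 1, and CXCL16, the 1 other ligand tested, had 1. Between the controls they were 1, 2, 0 and 3. Over all 9209 genes the numbers were 1266 with siTET2, 344 with miR-29b and 1212 between the controls.

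Genes of like pattern were sought by Pearson's r over the 8 arrays after each line's mean was subtracted, for the 4 members that reached 2-fold above the floor. Nearest to IL6R were INO80D, a subunit of a chromatin remodelling complex (r = 0.998), ARHGAP32 (0.981) and EFR3A (0.975). They differed by 0.52, 0.35 and 0.40 with siTET2 in DU145, less than IL6R. Nearest to CCL5 were MEF2A, a transcription factor (0.978), VEZF1 (0.972) and KMT2A, a histone methyltransferase (0.972), with differences of 0.36, 0.13 and 0.20 with miR-29b in LNCaP and of 0.39, 0.22 and 0.24 with siTET2 in DU145. Nearest to CXCL10 were RCAN3 (0.981), AEN (0.972) and ZNF385A (0.969), and to CXCL8 TUSC3 (0.958), EGLN3, an oxygen-sensing hydroxylase (0.957), and STT3A (0.947), none of them past 0.29 in any of the 4 treatment differences. These are the highest of 9208 or 9209 correlations over 8 points that share lines and controls, given as a description.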

How the data were processed

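Expression was measured on 8 Affymetrix whole-transcript arrays, 1 per line and transfection. Per the submitters' processing notes, the authors made the deposited log2 values with Affymetrix Expression Console and RMA, which corrects background, normalizes by quantiles and summarises each probe set; the table itself does not state the log base or which arrays were normalized together. Sorted values differed by a median of 0.07 between arrays of LNCaP, 0.06 between those of DU145 and 0.50 over all arrays, so levels of the lines were compared also after centring and after joint quantile normalization. No detection call was used here, and the number of arrays limits the precision. Low probe sets can be background. Protein features were not analysed here.

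Names came from the platform's annotation, checked by Entrez ID against RefSeq (19429 of 19460 probe sets with 1 symbol matched, 0 symbols changed). The probe set with the highest mean stood for a gene. limma 3.58.1 in R 4.3.3 (lmFit, eBayes) was fitted to 9209 genes with line and transfection as terms, 3 residual degrees of freedom, and Benjamini-Hochberg adjustment over all genes at 0.05. The fit was tested on simulated data. Alternatives were other filters, a variance trend, centring, quantile normalization, the other control, the floor, no cell line term and leaving out each array. Rose, fell and called refer to this test. The cell line is the block that pairs a treated array with the control array of the same line.

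The members, lists, alternatives and naming rule (all members; list genes past the limma threshold or among the 4 largest differences of a contrast; the 3 genes of most like pattern) were chosen with earlier results of these data known. Of 10 fibroblast markers, 0 or 1 lay above an array's median.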

Additional observations from a re-analysis of the deposited data

Results flagged for a closer look

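For 6 values the difference had opposite signs in the lines and the lines lay at least 2-fold apart. This difference between the lines was not tested, as each rests on 1 array per line and group. The share of all genes that meet this rule was not counted. With miR-29b in DU145, CXCL10, CXCL11 and CCL5 lay below the level floor, as did CXCL11 in LNCaP and CXCL8 between the LNCaP controls. The signs of such values can be those of background. The IL6R value of LNCaP was near 0, so its sign carries little. For miR-29b minus nc, LNCaP less DU145, it was 1.67 for CXCL11 (1.53 and -0.14), 1.49 for CXCL10 (1.22 and -0.27), 1.38 for CCL20 (0.91 and -0.48) and 1.23 for CCL5 (1.0 and -0.22). For siTET2 minus siControl it was -1.36 for IL6R (-0.02 and 1.34). For the control arrays, siControl minus nc, it was -1.71 for CXCL8 (-0.62 and 1.09), a difference in which neither arm was treated.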

How the results depend on the processing

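Of 260 alternative values of single differences 34 moved. The sign turned in 1 that reached 1.5-fold under either setting, CXCL8 with miR-29b in DU145, at 0.22 from nc and -0.87 from siControl. Members at least 1.5-fold from control and above the floor numbered 4 with miR-29b and 1 with siTET2 in LNCaP, and 0 and 2 in DU145. With the 75th percentile floor they were 1 and 0 in LNCaP and 1 for siTET2 in DU145, and 0 in place of 2 between the LNCaP controls. For LNCaP siTET2 they were 2 with no floor and 2 against the mean of both controls (CXCL10 at 0.60 and CCL20 at -0.66), while against nc the 1 was CCL20 (-1.02) in place of CXCL10 (0.38), and for DU145 miR-29b 1 against siControl. limma's 35 calls for siTET2 became 1 with no filter, 87 with the stricter filter, 113 with a trend, 77 with centred arrays, 18 with nc as the control and 0 without the cell line term, that is with no replicate block; leaving out 1 array gave 0 to 136. They were 0 without the siControl array of either line and without DU145 siTET2, 11 without either miR-29b array and 136 without LNCaP siTET2, where 1 member, IL6R, was called (0 to 1 over these fits). Without the cell line term limma also called 0 genes for miR-29b. Between the lines 7532 calls became 15722 with no filter and 3719 with the stricter one, and the 3 members called became 8 and 1; without 1 array, 2 to 3 of them were called. Each member has 1 probe set, so averaging probe sets changed no member's value. The stricter filter and floor leave fewer genes to count; other causes were not tested. With 1 array per group, no treated-to-control difference has an error of its own.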
